A study of Mus musculus with 8 samples.

Results

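Genes that encode RNA polymerase subunits, general transcription factors, Mediator, cyclins and their kinases, chromatin remodellers and histone-modifying enzymes were examined in Pol II pSer5 ChIP–seq data of lung smooth muscle cells (SMCs). Members were taken by gene name from the peak table, as rows whose name starts with Polr, Gtf, Supt, Smarc, Hdac, Kdm, Kmt, Setd, Ino80, Phf, Arid, Prdm, Ncoa, Ncor, Cbx or Ccn, or with Med, Taf, Chd, Brd, Kat, Ing or Cdk followed by a digit. This gave 33 peaks of 33 genes, of 1761 peaks in all, 1355 of which were assigned to 1312 genes. The rule used names only and no measured value. It also took genes outside transcription, among them *Ccna2* and *Ccnd3*, cyclins of the cell cycle, and *Cdk5rap2*, which encodes a centrosomal protein and no kinase.

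Both genotypes comprised 2 immunoprecipitated libraries. Tet3smKO:T (Mut in the labels) mice carried floxed *Tet3* alleles, a tamoxifen-inducible Cre driven by the α-SMA promoter and a tdTomato reporter in the ROSA26 locus, all on a C57BL/6 background. Ctrl (WT) animals were without the floxed alleles. Across experiments the study's controls carried Cre, reporter or both, and sorting tdTomato-positive cells, as done here, needs both. Since the Cre acts only where α-SMA is expressed, other lung cells keep *Tet3*, and the cells measured were tdTomato-positive cells sorted from lungs depleted of blood cells. Tamoxifen was given to adult mice, and their age at cell isolation for this assay is not given in the sources used here. The study's methods describe replicates in general as biological, and the labels do not tie a library to an animal or a pool of animals. Sorted SMCs of both genotypes were exposed to DRB (100 µmol, 4 °C, 1 h), which blocks the kinase that releases paused polymerase, and the antibody recognizes polymerase phosphorylated at Ser5 of its C-terminal domain (CTD). For the 4 input libraries the table lists no column, and they were not used here.

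Pol II initiates when general factors and Mediator assemble with it at a promoter, and Cdk7, the kinase of the general factor TFIIH, then places the Ser5 mark that this antibody reads. Remodellers such as the SWI/SNF and INO80 complexes slide or evict nucleosomes, while acetyltransferases, deacetylases, methyltransferases and demethylases write and erase histone marks. Many of these genes are transcribed in nearly all cell types from promoters rich in CpG dinucleotides, and several have alternative promoters inside the gene.

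The unit throughout is the authors' normalized read number per peak, a whole number. Library sums ranged from 25673 to 27058 and the median over peaks was 13 or 14 per library. A step between neighbouring values corresponded to an estimated 0.690 to 1.26 units per read, so 3 reads are worth between 2.07 and 3.77 units. These are estimates only: the methods describe input subtraction before normalization, after which a value need not stand for whole reads. In replicate 1 of both genotypes the step was under 1, so every whole number fits it. In replicate 2, 99.8% (Ctrl) and 99.6% (Tet3smKO:T) of values lay on the fitted steps. Values of the member peaks ranged from 4 to 43, and 23.5% of them were under 10, against 26.1% over all peaks. No peak was assigned to any of 10 smooth muscle markers, nor to 5 markers of blood cells, 4 of epithelium, 3 of endothelium or 3 of fibroblasts, so the labelled cell type could not be checked in these libraries. The deletion could not be checked either, as the peak nearest to a *Tet3* transcript start lay 47842 nt away. In bulk libraries a lower value can stand for fewer cells with polymerase at a site or for less polymerase per cell. All peaks of a library together held an estimated 21543 to 37207 reads. The study names *Acta2*, *Cnn1* and *Myh11*, which are among the smooth muscle markers without a peak, as highly expressed. A gene without a peak here therefore cannot be taken as free of polymerase.

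Of the 33 member peaks, 22 (66.7%) had their centre within 500 nt of the gene start used by the authors, and 11 (33.3%) lay further inside the gene. Over all assigned peaks, 25.2% lay further inside. Sequences of the member peaks were read from the reference genome (RefSeq, GRCm38.p6), and for peaks at a start only the stretch in no annotated exon is shown. They are printed on the strand of the gene with capitals for matches, on either strand, to short motifs, so that a match on the opposite strand appears as the reverse complement. GGGCGG is the core bound by Sp1 proteins. CCAAT is the site of the NF-Y factor, and CCGGAA is a core of ETS factors. TATAAA is the TATA box, while GCATGCG is a stretch of the site of NRF1. AAGATGG belongs to the site of YY1, and TGACGT to the cAMP response element. The following stretches belong to gene starts and serve as examples. They are *Polr2e* (chr10:80039796-80039935, minus strand), *Cdk7* (chr13:100730940-100731051, minus strand), *Med17* (chr9:15279932-15280045, minus strand) and *Smarca2* (chr19:26604896-26605049, plus strand).
*Polr2e*: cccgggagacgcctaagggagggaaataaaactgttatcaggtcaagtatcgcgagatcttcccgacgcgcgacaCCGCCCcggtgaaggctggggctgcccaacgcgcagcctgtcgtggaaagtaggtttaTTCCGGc
*Cdk7*: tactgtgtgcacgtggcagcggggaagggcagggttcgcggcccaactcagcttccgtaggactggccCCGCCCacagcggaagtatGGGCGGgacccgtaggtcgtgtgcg
*Med17*: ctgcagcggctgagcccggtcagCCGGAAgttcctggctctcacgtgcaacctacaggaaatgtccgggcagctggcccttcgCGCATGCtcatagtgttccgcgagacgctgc
*Smarca2*: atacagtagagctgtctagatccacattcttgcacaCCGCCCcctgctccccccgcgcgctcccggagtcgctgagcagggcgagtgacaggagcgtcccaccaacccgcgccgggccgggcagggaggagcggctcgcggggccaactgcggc
In *Cdk7* the GGGCGG matches began 25 and 44 nt upstream of the annotated start, in *Polr2e* a CCGGAA match began 7 nt upstream, and in *Med17* a GCATGCG match began 31 nt upstream. None of these 4 stretches held TATAAA, and no whole member peak at a gene start did (0 of 22, against 1.38% of all peaks at gene starts).

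Among the member peaks inside genes, the sequences below come from peaks centred within 500 nt of an alternative start of the same gene in GENCODE M21. They are *Hdac5* (chr11:102218930-102219025, minus strand), *Kdm2a* (chr19:4334002-4334087, minus strand), *Kdm4c* (chr4:74251827-74251935, plus strand), *Chd2* (chr7:73537763-73538012, minus strand) and *Arid5b* (chr10:68136650-68136878, minus strand).
*Hdac5*: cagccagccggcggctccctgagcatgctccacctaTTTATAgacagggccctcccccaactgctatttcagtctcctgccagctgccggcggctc
*Kdm2a*: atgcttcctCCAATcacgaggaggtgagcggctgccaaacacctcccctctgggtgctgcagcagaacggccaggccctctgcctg
*Kdm4c*: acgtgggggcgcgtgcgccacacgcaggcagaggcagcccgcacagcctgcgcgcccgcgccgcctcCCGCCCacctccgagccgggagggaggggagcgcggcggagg
*Chd2*: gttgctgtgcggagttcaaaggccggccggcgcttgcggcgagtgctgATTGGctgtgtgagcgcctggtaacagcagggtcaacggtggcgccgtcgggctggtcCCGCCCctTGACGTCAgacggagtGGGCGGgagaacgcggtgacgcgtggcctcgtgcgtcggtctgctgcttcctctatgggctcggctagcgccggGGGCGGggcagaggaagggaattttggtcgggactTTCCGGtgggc
*Arid5b*: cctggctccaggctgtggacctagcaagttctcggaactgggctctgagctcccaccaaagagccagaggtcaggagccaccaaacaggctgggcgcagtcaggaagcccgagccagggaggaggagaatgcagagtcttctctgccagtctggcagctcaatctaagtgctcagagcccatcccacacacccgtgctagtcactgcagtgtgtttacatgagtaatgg
The *Hdac5* stretch held TATAAA on the opposite strand, 60 nt upstream of the transcript start. In *Chd2* TGACGT matches on both strands overlapped, beginning 277 and 275 nt upstream of the nearest transcript start, beside 3 GGGCGG matches. *Arid5b* held none of the 7 motifs. The last set are 3 whole peaks in introns with no start of the same gene within 500 nt: *Arid1b* (chr17:5189783-5189982, plus strand), *Arid3a* (chr10:79934393-79934520, plus strand) and *Ccnd3* (chr17:47508029-47508199, plus strand).
*Arid1b*: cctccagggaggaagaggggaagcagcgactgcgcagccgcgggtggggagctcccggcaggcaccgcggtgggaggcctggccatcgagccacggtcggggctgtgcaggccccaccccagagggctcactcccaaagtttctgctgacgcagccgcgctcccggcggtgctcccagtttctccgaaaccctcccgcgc
*Arid3a*: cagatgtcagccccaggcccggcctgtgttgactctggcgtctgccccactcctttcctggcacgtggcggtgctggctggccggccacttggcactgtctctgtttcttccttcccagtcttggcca
*Ccnd3*: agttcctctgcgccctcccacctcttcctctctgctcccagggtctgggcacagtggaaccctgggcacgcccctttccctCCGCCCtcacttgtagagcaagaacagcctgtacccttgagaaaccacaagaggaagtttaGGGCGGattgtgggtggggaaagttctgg
Only *Ccnd3* of these 3 held a motif, with GGGCGG on both strands. A match describes letters in a window and is no evidence that a factor binds there.

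None of the 33 member peaks passed an adjusted p-value of 0.05 between genotypes (limma on log2(value + 1) with Benjamini–Hochberg adjustment over all 1761 peaks), and the lowest adjusted p-value among them was 0.691. Over all peaks the share that passed was 0%. Without adjustment, p was under 0.05 for 0 members in either direction. Over all peaks this held for 127, with 3.24% of the 1761 higher and 3.98% lower in the mutant libraries. A quasi-Poisson test on estimated reads put 5 of all peaks and 0 of the members past the adjusted threshold. The 95% confidence interval of the log2 fold change included 0 for all 33 members, and it reached a median of 0.83 to either side. The median log2 fold change of the members was −0.04 and that of all peaks −0.02, with 16 of 33 members (48.5%) and 48.4% of all peaks above 0. The authors' normalization brings the libraries to a similar level, so these medians cannot show a change shared by all peaks. They only place the members beside the other peaks. On the log2 scale the median absolute difference between genotype means of a member was 0.22, while that between replicates was 0.38 in Ctrl and 0.39 in Tet3smKO:T. For all peaks the genotype difference was 0.33, and the replicate differences were 0.42 and 0.39. A genotype mean averages 2 libraries and varies less than a single library. Differences between means therefore come out smaller than those between replicates by averaging alone, and the sizes cannot be compared directly. In 4 members (12.1%) both Tet3smKO:T libraries were above both Ctrl libraries, compared with 17.1% of all peaks. In 6 members (18.2%) both were below, compared with 16.6%.

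**Figure D1:**
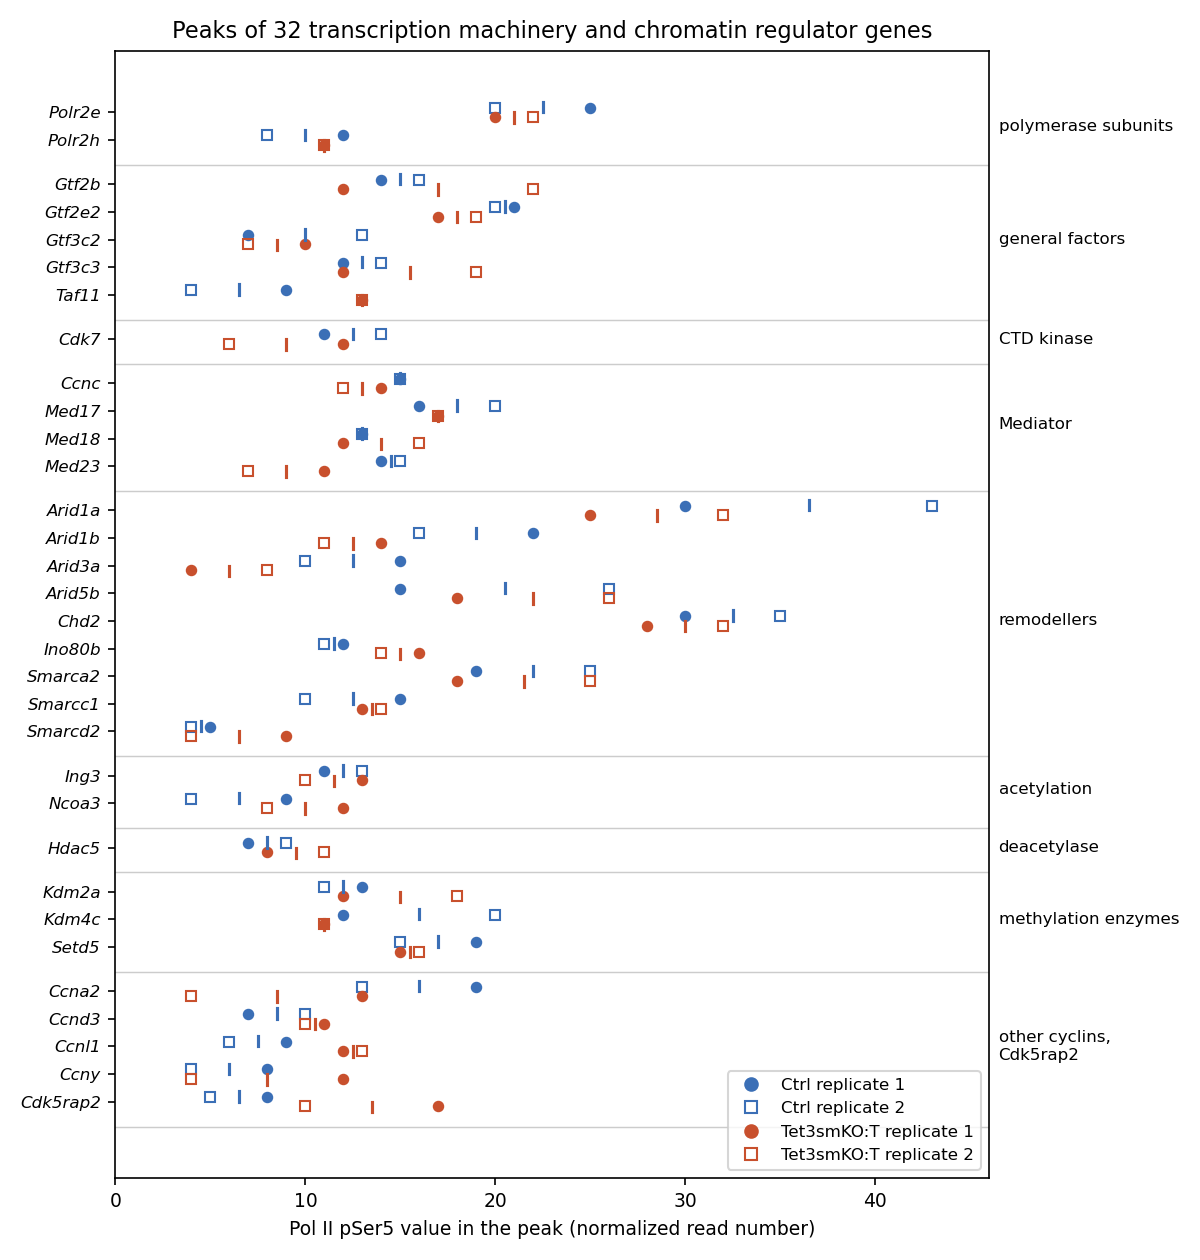
Normalized Pol II pSer5 read number (x axis) of 32 of the 33 member peaks in the 2 Ctrl (blue) and 2 Tet3smKO:T (orange) libraries, grouped by role. Filled circles are replicate 1, open squares replicate 2 and vertical ticks the mean of each genotype. Values ran from 4 to 43, and *Arid1a* and *Chd2* had the highest means. Replicates of most genes were as far apart as the genotype means, which average 2 libraries each and so differ less by averaging alone.

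**Figure D2:**
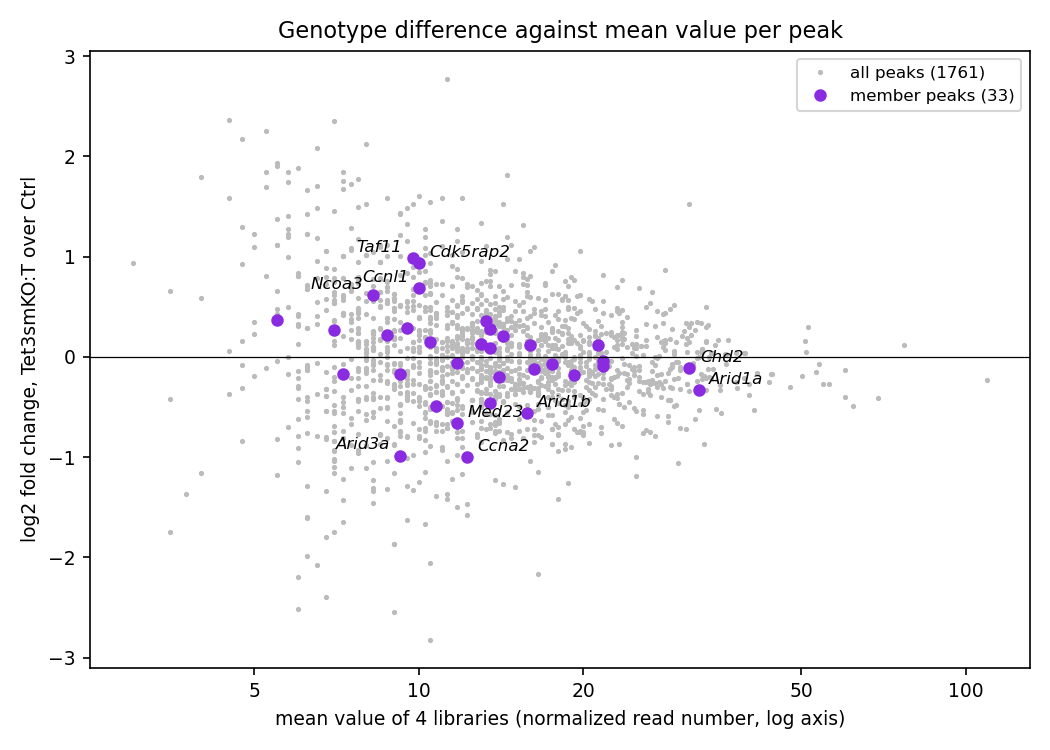
Log2 fold change of Tet3smKO:T over Ctrl (y axis, on the log2(value + 1) scale) against the mean value of the 4 libraries (log x axis) for all 1761 peaks (grey) and the 33 member peaks (purple). The member peaks lay between −1.0 and 0.99, inside the range of all peaks from −2.82 to 2.78.

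Only 2 subunits of the polymerases had an assigned peak, both shared by all nuclear RNA polymerases. *Polr2e* (Rpb5) had values of 25 and 20 in Ctrl against 20 and 22 in Tet3smKO:T at its start (chr10:80039630-80039935). The Ctrl libraries spanned the Tet3smKO:T values, and the log2 fold change was −0.09 (95% interval −0.72 to 0.54). *Polr2h* (Rpb8) had 12 and 8 in Ctrl against 11 and 11 in Tet3smKO:T, with a log2 fold change of 0.15 (−0.68 to 0.98). The start of *Clcn2* on the opposite strand lay 39 nt from the centre of this peak, and ChIP reads do not tell the strands apart. Within 500 nt of the starts of *Polr2a* no peak was found (the nearest was 55344 nt away), although this gene encodes the largest subunit, which carries the CTD.

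General factors were represented by 5 peaks. *Gtf2b* (TFIIB) had values of 14 and 16 in Ctrl against 12 and 22 in Tet3smKO:T, and *Gtf2e2*, a subunit of TFIIE, had 21 and 20 against 17 and 19. The genotypes of *Gtf2e2* did not overlap, but its log2 fold change of −0.18 had an interval of −0.79 to 0.43. *Gtf3c2* and *Gtf3c3* encode subunits of TFIIIC, which recruits Pol III to tRNA genes. Values of *Gtf3c2* were 7 and 13 in Ctrl against 10 and 7 in Tet3smKO:T, and those of *Gtf3c3* were 12 and 14 against 12 and 19. The genotypes overlapped for both TFIIIC genes. Per 100 nt of peak, which allows genes to be compared, *Gtf2b* (9.04) and *Gtf3c3* (8.85) were among the 5 highest members, whereas the median was 6.69 for the members and 6.79 for all assigned peaks.

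*Taf11*, a subunit of the TFIID complex that recognizes core promoters, had the smallest p-value of all members. Its peak (chr17:27907646-27907815) had 9 and 4 in Ctrl against 13 and 13 in Tet3smKO:T. Both Tet3smKO:T libraries exceeded both Ctrl libraries, with a log2 fold change of 0.99 (standard error 0.44, interval −0.11 to 2.08, unadjusted p = 0.0691 and adjusted p = 0.691 from limma). By p-value it was in place 176 of the 1761 peaks, and the log2 fold change was 0.49 without Ctrl replicate 2 and 1.49 without Ctrl replicate 1. The peak was centred 1511 nt from the gene start used by the authors, but 4 nt from the start of a retained-intron transcript and 7 nt from that of a coding transcript of *Taf11*.

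*Cdk7* was the only member among the kinases of the CTD. It had 11 and 14 in Ctrl against 12 and 6 in Tet3smKO:T (chr13:100730875-100731051). The lowest value was that of Tet3smKO:T replicate 2, while replicate 1 lay between the Ctrl libraries, and the log2 fold change was −0.49 (−1.50 to 0.52), or −0.045 without Tet3smKO:T replicate 2. *Ccnh*, the cyclin partner of Cdk7, had no peak within 500 nt of a start. Neither did *Cdk9*, *Ccnt1* and *Ccnt2*, the kinase and cyclins of P-TEFb that DRB inhibits, nor the elongation factor genes *Supt4a*, *Supt6* and *Supt16*.

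Mediator, which links activators to the polymerase, had 4 member peaks, all within 31 nt of the gene start. *Med23*, of the tail module, had 14 and 15 in Ctrl against 11 and 7 in Tet3smKO:T, so that both Ctrl libraries were higher. Its log2 fold change was −0.66 (standard error 0.33, interval −1.49 to 0.16, unadjusted p = 0.0968 and adjusted p = 0.715 from limma). *Ccnc*, the cyclin of the Mediator kinase module, had 15 and 15 against 14 and 12, again without overlap, with a log2 fold change of −0.20 (−0.87 to 0.47). The head module genes overlapped between genotypes. *Med17* had 16 and 20 in Ctrl against 17 and 17 in Tet3smKO:T, and *Med18* had 13 and 13 against 12 and 16.

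Remodellers and ARID proteins, which bind DNA through an AT-rich interaction domain, were the largest group, with 9 peaks and a median log2 fold change of −0.04. *Arid1a* and *Arid1b* are alternative subunits of a SWI/SNF complex, and both peaks were intronic. *Arid1a* (chr4:133754312-133754632) had the highest mean of all members, with 30 and 43 in Ctrl against 25 and 32 in Tet3smKO:T, and with 10.1 per 100 nt it ranked 101 of 1761 peaks. The genotypes overlapped, and the log2 fold change was −0.33 (−1.02 to 0.35). *Arid1b* had 22 and 16 in Ctrl against 14 and 11 in Tet3smKO:T. Here both Ctrl libraries were higher, with a log2 fold change of −0.56 (−1.31 to 0.19, adjusted p = 0.715 from limma).

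The remaining ARID genes encode DNA-binding regulators. *Arid3a* had 15 and 10 in Ctrl against 4 and 8 in Tet3smKO:T, with no overlap and a log2 fold change of −0.98 (standard error 0.46, interval −2.11 to 0.14, unadjusted p = 0.0760 and adjusted p = 0.696 from limma), which was −0.56 without Tet3smKO:T replicate 1. *Arid5b* had 15 and 26 against 18 and 26. In both genotypes of *Arid5b*, replicate 2 was the higher library, and the log2 fold change was 0.12 (−0.76 to 1.01). *Chd2*, a chromodomain helicase, had 30 and 35 in Ctrl against 28 and 32 in Tet3smKO:T, the narrowest interval of all members (log2 fold change −0.11, −0.68 to 0.46).

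The SWI/SNF ATPase gene *Smarca2* (Brm) had 19 and 25 in Ctrl against 18 and 25 in Tet3smKO:T at its start, and its log2 fold change of −0.04 (−0.76 to 0.69) was the smallest in size among the members. With 9.71 per 100 nt it was the second highest member. The core subunit gene *Smarcc1* had 15 and 10 against 13 and 14, and *Smarcd2* had 5 and 4 against 9 and 4. *Smarcd2* was the weakest member, near the level of a few reads. *Ino80b*, of the INO80 complex, had 12 and 11 in Ctrl against 16 and 14 in Tet3smKO:T, and both Tet3smKO:T libraries were higher (log2 fold change 0.35, −0.33 to 1.04).

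Histone acetylation was represented by 2 genes. *Ing3*, a subunit of an acetyltransferase complex that reads methylated histone H3, had 11 and 13 in Ctrl against 13 and 10 in Tet3smKO:T. *Ncoa3*, a coactivator of nuclear receptors, had 9 and 4 against 12 and 8, with overlap and a log2 fold change of 0.61 (−0.63 to 1.85), or 0.11 without Ctrl replicate 2 and 1.11 without Ctrl replicate 1. Of the repressive side, the class IIa deacetylase gene *Hdac5* had 7 and 9 in Ctrl against 8 and 11 in Tet3smKO:T, and its genotypes overlapped (log2 fold change 0.22, −0.70 to 1.14).

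Histone methylation was represented by 3 genes. *Kdm4c*, a histone demethylase, had 12 and 20 in Ctrl against 11 and 11 in Tet3smKO:T. Both Ctrl libraries were higher, replicate 1 by a single unit, and the log2 fold change was −0.46 (−1.30 to 0.37), or −0.12 without Ctrl replicate 2 and −0.81 without Ctrl replicate 1. *Kdm2a*, a demethylase that binds unmethylated CpG dinucleotides, had 13 and 11 against 12 and 18, with a log2 fold change of 0.28 (−0.51 to 1.07), or 0.0043 without Tet3smKO:T replicate 2. *Setd5*, a SET domain gene, had 19 and 15 against 15 and 16 (log2 fold change −0.12, −0.79 to 0.56). The centre of the *Setd5* peak lay 17 nt from the start of Gt(ROSA)26Sor on the opposite strand, the locus that carries the tdTomato reporter, and reads from the promoter of either gene fall into the same peak.

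The other cyclins and *Cdk5rap2* had the widest differences between genotype means, with a median size of 0.69 on the log2 scale. Their replicates were also far apart, with median differences of 0.51 in Ctrl and 0.71 in Tet3smKO:T. *Cdk5rap2* had 8 and 5 in Ctrl against 17 and 10 in Tet3smKO:T, with no overlap and a log2 fold change of 0.94 (standard error 0.42, interval −0.11 to 1.98, unadjusted p = 0.0699 and adjusted p = 0.693 from limma), which was 0.58 without Tet3smKO:T replicate 1. *Ccnl1*, a cyclin linked to splicing, had 9 and 6 against 12 and 13, also without overlap (log2 fold change 0.69, −0.17 to 1.55). *Ccna2*, the cyclin of DNA replication and mitotic entry, had 19 and 13 in Ctrl against 13 and 4 in Tet3smKO:T. One library of each genotype shared the value 13, and the log2 fold change of −1.0 (−2.35 to 0.35, unadjusted p = 0.119 from limma) was −0.26 without Tet3smKO:T replicate 2. *Ccnd3* had 7 and 10 against 11 and 10, and *Ccny*, a membrane-bound cyclin, had 8 and 4 against 12 and 4. Both overlapped.

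The member peaks together held 1.74% and 1.74% of the summed values in the Ctrl libraries and 1.76% and 1.71% in the Tet3smKO:T libraries. The means were 1.74% ± 0.0026 (SD, n = 2) and 1.74% ± 0.034 (SD, n = 2), and the difference of −0.0022 percentage points was smaller than the spread of the Tet3smKO:T libraries (exact two-sided permutation test, p = 1.0, where the smallest p-value possible with 2 against 2 libraries is 0.333).

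The study asked whether polymerase enters gene bodies after loss of *Tet3*, and examined pSer5 signal over whole gene bodies of grouped genes. From the same assay it also reported increased pSer5 binding at gene starts. It also drew on CAGE–seq of transcript starts, read ratios between exons and the histone mark H3K36me3. Called peaks are a different measure and do not answer that question by themselves. Among the member peaks, 11 lay inside genes. Of these, 7 (63.6%) had a transcript start of the same gene within 500 nt in GENCODE M21, compared with 98 of all 342 assigned inside peaks (28.7%). For 6 of the 11 (54.5%, against 23.7%) it was the start of a protein-coding transcript. The *Kdm2a* peak was centred 64289 nt inside the gene and 5 nt from the start of a shorter coding transcript. *Hdac5* was 11216 nt inside and 21 nt from a start, and *Kdm4c* was 9411 nt inside and 28 nt from a start. *Arid5b* lay 141976 nt inside and 138 nt from the start of a shorter coding transcript, and *Chd2* 3794 nt inside and 331 nt from such a start. *Taf11*, described above, and *Arid1a* (2297 nt inside, 490 nt from the start of a retained-intron transcript) completed the 7. Starts of antisense genes on the opposite strand lay 61 nt from the centre of the *Chd2* peak, 72 nt from *Taf11* and 194 nt from *Kdm4c*. For *Chd2* this was nearer than its own start, and ChIP reads do not tell the strands apart.

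Only 4 member peaks had no start of their gene within 500 nt. Among them, *Arid1b* was 149305 nt from the nearest start, *Arid3a* 4033 nt and *Ccnd3* 2873 nt. Log2 fold changes of these 3 were −0.56, −0.98 and 0.29. Over all 244 inside peaks without such a start the median was 0.085, and 55.7% were above 0. The median over the 11 member inside peaks was −0.11, and over all 342 inside peaks it was 0.06. Over the 7 within 500 nt of an alternative start it was 0.12, and over all 98 of that kind −0.0079. None of the 11 passed the threshold, and these values describe few peaks.

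**Figure D3:**
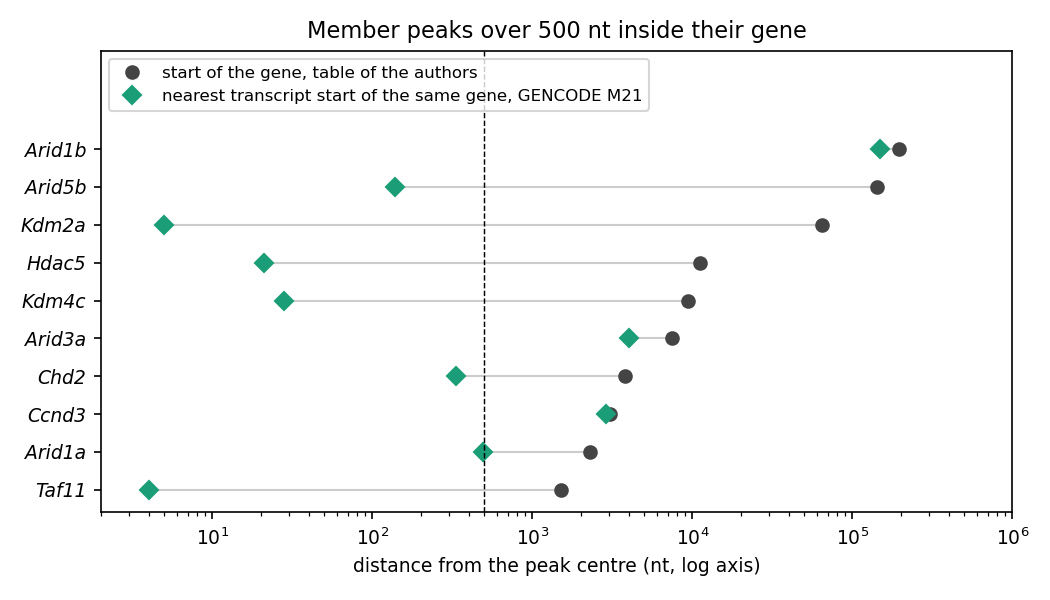
Distance (nt, log x axis) of the centre of 10 of the 11 inside peaks from the gene start used by the authors (black circles) and from the nearest transcript start of the same gene in GENCODE M21 (green diamonds). The dashed line marks 500 nt, and 7 of the 10 green diamonds lie to its left.

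Base composition followed position. Member peaks within 500 nt of the gene start had a median of 10.6 CpG dinucleotides per 100 nt and 66.6% GC, and all such peaks had 11.2 and 68.8%. The 7 inside peaks within 500 nt of an alternative start had 8.47 CpG per 100 nt, and all 98 of that kind 10.5. Within the 7, *Arid5b* (1.75), *Hdac5* (3.95) and *Kdm2a* (4.92) were poor in CpG, whereas *Kdm4c* reached 14.7 and *Arid1a* 12.8. The 4 intronic peaks without a start had a median of 3.30, and all 244 such peaks 2.51. *Arid1b* stood apart from the other three of its class with 9.0 CpG per 100 nt and 72.0% GC, although the nearest *Arid1b* start is remote. GGGCGG occurred in 16 of 22 member peaks at gene starts (72.7%, against 65.4% of all such peaks) and CCGGAA in 11 (50.0%, against 45.1%). CCAAT was found in 3 (13.6%, against 17.0%), TGACGT in 3 (13.6%, against 13.03%), GCATGCG in 2 (9.09%, against 11.7%) and AAGATGG in 2 (9.09%, against 8.98%). These shares were close to those of all peaks at gene starts. A start of another gene on the opposite strand lay within 1000 nt of 8 member peaks (24.2%) and of 31.8% of all assigned peaks.

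**Figure D4:**
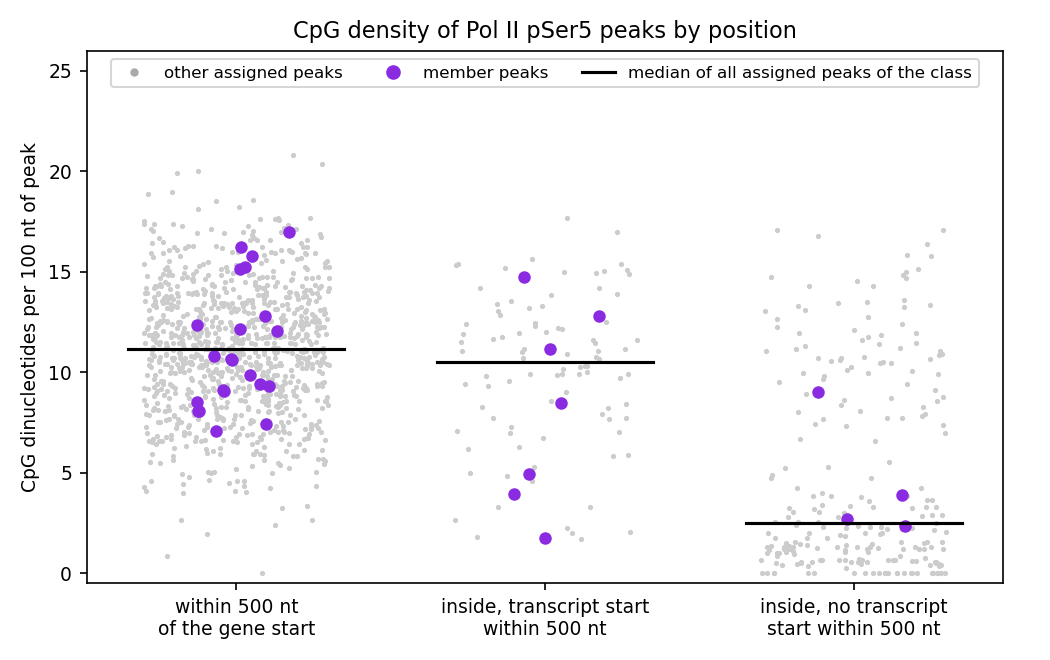
CpG dinucleotides per 100 nt of peak (y axis) for assigned peaks in 3 position classes, with member peaks in purple, the other assigned peaks in grey and the median of all assigned peaks of a class as a black line. Points are spread sideways for legibility. Member peaks at gene starts lay between 7.07 and 17.0, and of the 4 intronic member peaks without a start only *Arid1b* exceeded 5.

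Most genes of these families had no peak, which at this number of reads does not show that polymerase was absent. Of 332 protein-coding genes in GENCODE M21 whose names follow the rule, 33 (9.94%) had an assigned peak, against 5.59% of all 21938 protein-coding genes. The share was 9 of 41 remodellers (21.95%), 4 of 33 Mediator genes (12.1%), 5 of 46 general factors (10.9%), 2 of 29 polymerase subunits (6.90%) and 3 of 79 methylation genes (3.80%). It was 2 of 13 deacetylases and corepressors (15.4%) and 1 of 15 elongation factors and CTD kinases (6.67%). When any peak within 500 nt of a transcript start was counted, the numbers were 47 of 332 (14.2%) and 6.85% of all protein-coding genes. Methylation genes then stood at 10 of 79 (12.7%), polymerase subunits at 4 of 29 (13.8%), general factors at 8 of 46 (17.4%) and remodellers at 8 of 41 (19.5%), so the order of the roles depends on how peaks are counted.

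**Figure D5:**
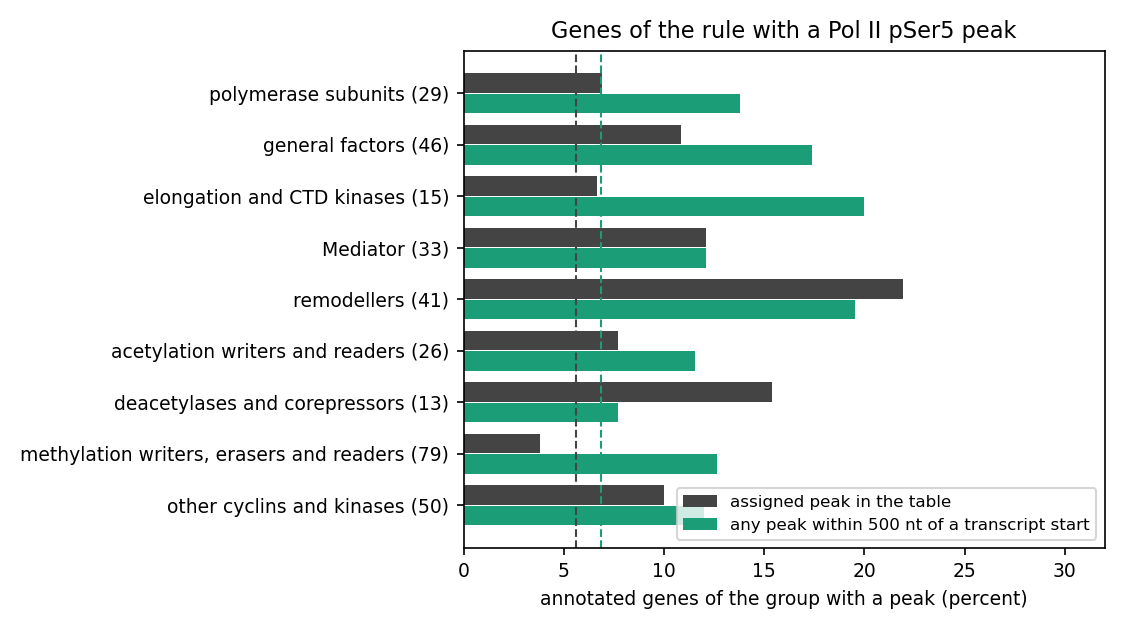
Percent of annotated protein-coding genes of each role (number of genes in parentheses) with an assigned peak (dark bars) or with any peak within 500 nt of a transcript start (green bars). Dashed lines give the same percentages for all protein-coding genes, 5.59% and 6.85%.

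The wider count kept 29 of the 33 members, since 4 have no peak near a start, and added 18 genes that follow the rule by name but are not named in the table, 12 because the peak at their start had no gene assigned and 6 because it was assigned to a neighbour. In 9 of the 18, including 4 of the 12, a coding start of another gene lay within 1000 nt of the peak. Reads there cannot be credited to a single gene. The 18 include genes central to transcription. *Supt5*, a subunit of the pausing and elongation factor DSIF, had 14 and 20 in Ctrl against 17 and 16 in Tet3smKO:T, 72 nt from a start (log2 fold change −0.02, −0.74 to 0.70). *Setd2*, the methyltransferase that marks transcribed gene bodies and travels with elongating Pol II, had 7 and 13 against 9 and 10, 293 nt from a start (log2 fold change −0.01, −0.99 to 0.97). At *Cdk13*, another CTD kinase, the values were 25 and 20 against 17 and 23. Genotypes overlapped in all 3. The peak of *Taf3*, of TFIID like *Taf11*, had 3 and 6 in Ctrl against 10 and 12 in Tet3smKO:T, without overlap (log2 fold change 1.18, standard error 0.49, unadjusted p = 0.0539 and adjusted p = 0.691 from limma). *Cdk5* had 22 and 28 against 16 and 13, a log2 fold change of −0.74 (unadjusted p = 0.0371 and adjusted p = 0.681 from limma), and a start of *Slc4a2* lies at the same peak. *Taf3* and *Cdk5* were picked out after their values were seen. Over the 18 peaks, 0 passed the adjusted threshold and *Cdk5* alone had an unadjusted p under 0.05, as had 7.21% of all peaks, and the median log2 fold change was −0.05.

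A list of further complexes of transcription and chromatin outside the name rule (NELF, Integrator, Polycomb, NuRD, TIP60 and others, 102 annotated genes) had 14 peaks of 12 genes, of which 0 passed the adjusted threshold. Unadjusted p was under 0.05 for 1 with a higher and 1 with a lower value, where 3.24% and 3.98% of all peaks reached this, and both are given as values only. The higher peak was that of *Ep400*, the ATPase of the TIP60 complex, with 17 and 14 in Ctrl against 26 and 30 in Tet3smKO:T (log2 fold change 0.82, standard error 0.26, unadjusted p = 0.0203 and adjusted p = 0.681 from limma). The lower was that of *Nelfa*, a subunit of the negative elongation factor that holds paused Pol II, with 45 and 41 against 28 and 19 (log2 fold change −0.87, standard error 0.27, unadjusted p = 0.0189 and adjusted p = 0.681 from limma). In both genes the libraries of the genotypes did not overlap.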

How the data were processed

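Pol II pSer5 ChIP–seq was carried out on sorted lung SMCs, with 2 immunoprecipitated libraries per genotype, and groups were taken from the sample titles. According to the methods, the authors trimmed, deduplicated and aligned reads, called peaks with MACS2, unified them, subtracted input and normalized counts with DESeq2. The submitters' processing notes name FastQC, Trimmomatic 0.36 and Picard 2.17.10, and the build mm10. Each deposited value is a score: reads normalized and rounded by the authors. The deposited distance to the gene start and the fraction of the peak overlapping the gene, also from the authors, served only as annotation. Genotype means in the table were not used, and 0 per-sample columns were left unused. The aligner is not given in the sources used here. Since values were not raw counts, log2(value + 1) of all 1761 peaks was fitted with limma 3.58.1 (lmFit, eBayes with trend; R 4.3.3), unpaired, with Benjamini–Hochberg adjustment. The fit and the quasi-Poisson test were tested on simulated data with planted changes larger than that of any member. This does not show how often differences of the members' size would be found. On this scale fold changes of low peaks come out too small. Positions came from GENCODE M21 and sequences from GRCm38.p6. Peak coordinates were read as counted from 1, which may be off by 1 nt. The members and lists were chosen with earlier results of these data known. Named members were the 5 smallest p-values in each direction, the 5 highest per 100 nt, all inside peaks and fixed transcription genes (Polr2 subunits, *Setd2*, *Cdk7*, *Cdk9* and their cyclins, and *Supt* genes); other members are given for completeness, except 1 that is not reported here but is included in all counts over the 33. Alternatives covered the pseudocount, a filter, scaling, quantile normalization, a replicate block, estimated reads (values divided by the step of each library) and each library left out. Python 3.11.15 with numpy 2.4.6, scipy 1.17.1, pandas 2.3.3, pysam 0.24.0 and matplotlib 3.10.9 was used otherwise.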

Additional observations from a re-analysis of the deposited data

How the results depend on the processing

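With 2 libraries per genotype and few reads per peak, single libraries move the member values, and the cause of these shifts was not tested. Under none of the 11 alternatives did a member peak pass the adjusted threshold, and the lowest adjusted p-value of a member ranged from 0.377 (quasi-Poisson on estimated reads) to 0.780 (replicate block). Over all 1761 peaks 0 passed with limma on the deposited values, but 6 did after scaling to equal totals and 5 with the quasi-Poisson test. At an unadjusted p-value under 0.05, scaling to equal totals gave 2 members higher (*Taf11*, *Cdk5rap2*) and 1 lower (*Ccna2*), and the quasi-Poisson test gave 1 higher (*Cdk5rap2*) and 1 lower (*Arid3a*), where 9.14% and 10.8% of all peaks were at that level in either direction. Leaving out each library gave 0 to 2 higher and 0 to 2 lower. Without Ctrl replicate 1 these were *Taf11* and *Ccnl1* higher and *Kdm4c* lower, and without Tet3smKO:T replicate 1 *Ccna2* and *Med23* lower, beside 10.1% and 8.29% of all peaks. With the replicate block, 0 members were called in either direction, and the number of all peaks at that level went from 127 to 74. Deviations of same-numbered libraries correlated at −0.07 over all peaks, so the numbers were not taken as pairs.

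The median log2 fold change of the members, −0.04, became 0.036 with quantile normalization and 0.029 with the quasi-Poisson test, and ranged from −0.070 to 0.082 with each library left out. The share held by members within 500 nt of the gene start differed by 0.037 percentage points between genotypes, against −0.0022 for all members. Counting any peak near a transcript start raised the share of annotated member genes with a peak from 9.94% to 14.2%. Of 22 named members, 15 kept their direction in the alternatives that gave them a value, and 3 of these 15 were under the filter on low values. Leaving out a single library moved the log2 fold change of 21 of the 22 by over 1.5 times under at least 1 choice of library, all but *Ino80b*. The named members outside the 15 that kept their direction had small differences whose sign turned under at least 1 alternative. With quantile normalization *Smarca2* was at 0.036 and *Chd2* at 0.016. With each library left out, *Gtf2b* ranged from −0.30 to 0.53, *Gtf3c3* from −0.10 to 0.52, *Smarca2* from −0.26 to 0.19, *Polr2e* from −0.24 to 0.066, *Arid5b* from −0.25 to 0.50 and *Polr2h* from −0.12 to 0.41. With a library left out, the lone library of its genotype is assumed to vary like those of the other genotype.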
